A study of Mus musculus with 6 samples.

Results

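Cytosolic ribosomal proteins are the proteins that, with ribosomal RNA, build the ribosomes of the cytosol, and the transcripts of their genes were followed here in cultured mouse osteoclasts that overexpressed Hes1. The genes were taken by symbol from the gene counts: protein-coding genes named Rpl or Rps with a number, together with Rpsa, Rplp0, Rplp1 and Rplp2, without pseudogenes (-ps) and Rps6k kinases. Of 86 such genes, 85 had at least 10 counts summed over the 6 libraries, among 16954 genes that passed the same minimum and 55573 genes in the files. Rpl10l, a paralog of Rpl10, had 0 counts in every library and was left out. The 85 genes comprise 31 of the small (40S) subunit, 43 of the large (60S) subunit, 3 of the stalk, and 8 paralogs or similarly named genes (Rpl3l, Rpl7l1, Rpl22l1, Rpl36al, Rpl39l, Rps27l, Rps27rt and Rps19bp1).

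The Rosa-Hes1 group held 3 libraries from male Ctsk Cre/WT;Rosa Hes1 mice, and the Control group held 3 libraries from male Rosa[STOP]Hes1 littermates, which the labels call wild type. All 6 came from bone marrow-derived macrophages of 10-week-old mice, kept for 4 days with macrophage colony-stimulating factor (M-CSF) at 30 ng/ml and receptor activator of NF-kappa B ligand (RANKL) at 10 ng/ml, the cytokines that turn these precursors into osteoclasts. In the Rosa-Hes1 mice, Cre recombinase made from the Ctsk (cathepsin K) locus removes a STOP cassette, and Hes1 is then transcribed from the Rosa26 locus. The Control mice carry the same Rosa26 construct with the STOP cassette in place. Ctsk is switched on as osteoclasts mature, so precursors in the same dish need not carry the active transgene, and the Control mice lack Cre. RNA was taken from whole cultures, in which fewer cells of a type and less RNA per cell cannot be told apart.

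Counts assigned to genes ranged from 14137884 to 15605454 in the Rosa-Hes1 libraries and from 13038362 to 15956331 in the Control libraries. Hes1, a transcriptional repressor of the Notch pathway and the gene that was induced, had 75, 74 and 95 counts in the Rosa-Hes1 libraries and 7, 9 and 4 counts in the Control libraries. On the first principal component of all genes, which held 38.1% of the variance, Rosa-Hes1 replicate 2 lay closest to the Control libraries. Of 12 osteoclast markers, 10 were higher in Rosa-Hes1 cultures by edgeR's quasi-likelihood test (adjusted p under 0.05 after Benjamini-Hochberg adjustment over all genes) and 0 were lower. Of all genes, 5.85% were higher. Leaving out Rosa-Hes1 replicate 1 or 3, or Control replicate 1 or 3, left 2 to 6 of the osteoclast markers higher. The study reports many of these markers, among them Acp5, Nfatc1 and Itgb3, as increased in its RNA-Seq, so the count is not independent of that report.

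Each ribosomal protein occupies a fixed place in a subunit in a single copy, apart from the acidic stalk proteins, so cells make these proteins in matched amounts. Their mRNAs are among the most abundant of a growing cell, and many begin with a 5' terminal oligopyrimidine (TOP) tract, a C followed by a run of pyrimidines, through which the kinase mTORC1 and the RNA-binding protein LARP1 control their translation. Osteoclasts are large secretory cells formed by fusion of macrophage precursors, and a change in their ribosomal protein transcripts could come before, or go without, a change in translation, which RNA counts do not measure.

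The start sites of the genes are shown first because the TOP tract is the sequence that marks this class of mRNA. In the RefSeq promoter table (GRCm38.p6), which holds 250 bases before to 50 after each annotated start, 57 of the 77 genes of the 40S, the 60S and the stalk were found. The motif CTTTCC, searched on the given strand from 50 bases before to 50 after the start, was present in 18 of these 57 genes (31.6%), against 5.43% of the 27025 genes in the table. The motif CCGGAAG, the core bound by Ets-family factors, searched on either strand over the whole stretch, was present in 24 of the 57 (42.1%), against 9.93% of all genes. A match is a description of the sequence and not a mapped start or binding site. CTTTCC is a fixed sequence, so a gene without it can still begin with a TOP tract. The annotated start of Rps6, whose 25 bases around it lack CTTTCC, is a C followed by a run of pyrimidines. The lines below were chosen because they hold the motif, which 9 of the 57 genes do in this stretch, and give 25 bases around the start, 5' to 3', with CTTTCC in capitals and the annotated start at the 11th base.
Rpl38, a 60S protein (chr11:114668570-114668594, plus strand): aagcctcgttCTTTCCccgttctct
Rpl28, a 60S protein (chr7:4792955-4792979, plus strand): tctcgtgtctctCTTTCCgtctccg
Rpl15, a 60S protein (chr14:18270972-18270996, minus strand): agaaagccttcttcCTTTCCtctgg
Rps27, a 40S protein (chr3:90213634-90213658, minus strand): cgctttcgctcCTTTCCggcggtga
Rps27rt, a copy of Rps27 (chr9:114982725-114982749, minus strand): ttatcccttgCTTTCCggcggtgac
In Rpl38 the annotated start is the C of the motif itself. Rps27 and Rps27rt share the bases CTTTCCggcggtga, and their upstream bases differ.

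Transcript levels were high for most of the genes. Mean levels over the 6 libraries, in CPM (counts relative to a library size adjusted by TMM normalization factors), had a median of 286 over the 85 genes, and 70 of them exceeded 100 CPM. Per kb of annotated exon, which allows genes to be compared, Rplp1 was the most abundant at 1023 CPM per kb, followed by Rplp0 at 653, Rps3a1 at 647, Rps15 at 637 and Rpl4 at 616. Rplp1 and Rplp0 belong to the stalk, which recruits elongation factors, while Rps3a1 and Rps15 are 40S proteins and Rpl4 is a 60S protein that reaches into the exit tunnel. Rplp1 also ranked first when the length of the principal transcript replaced the union of exons, a choice made after seeing the data, and Rps3a1 then ranked 7.

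The lowest levels were those of Rpl3l at 0.201, Rpl24 at 0.309, Rpl36al at 0.419, Rpl39l at 1.29 and Rps10 at 1.92 CPM per kb. Rpl3l replaces Rpl3 in striated muscle, and Rpl39l replaces Rpl39 in male germ cells, but Rpl24 and Rps10 are constituents of ribosomes in every tissue. Rpl24 had 3, 3 and 2 counts in the Rosa-Hes1 libraries and 5, 9 and 6 in the Control libraries. Of its exon bases, 47.0% also lie in Gm28037, an annotated gene on the same strand that had 0 counts in all libraries.

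Overlap of this kind was found for other genes with low counts. Rps10 shares 20.6% of its exon bases with RPS10-NUDT3, and Rpl36al shares 24.5% with Gm49383, and both partners had 0 counts in all libraries. Rpl23a, a 60S protein near the exit of the nascent chain, averaged 5.45 CPM, and 62.3% of its exon bases overlap another gene on either strand, chiefly Tlcd1 on the opposite strand. Whether strand was used in the counting is not given in the sources used here, so reads of Rpl23a and of Tlcd1 cannot be told apart. The levels of these 4 genes are therefore levels of the reads assigned to them, not measures of how much of each protein's mRNA was present.

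Sequence shared with other annotated genes, as copies elsewhere in the genome or by overlap at the same locus, bears on many of the members. The search took in either strand. A median of 18.6% of the 75-base transcript windows of a member, the length of a read, also occurred in another annotated gene, mostly a pseudogene. The share reached 90.3% in Rps27rt, all of it with Rps27, 78.1% in Rpl23a, 77.3% in Rpl35, 70.9% in Rpl36 and 60.2% in Rps3a1. In Rpl23a the overlapping gene Tlcd1 held 42.9% of the windows. In Rpl35 the gene Wdr38 held 51.6%, and 66.2% of the exon bases of Rpl35 overlap another gene on either strand. Between 7.37% and 7.49% of the reads in each file were set aside as not unique, and the groups overlapped. Reads set aside as ambiguous between overlapping genes were 5.51%, 5.57% and 5.52% in the Rosa-Hes1 files and 5.76%, 6.07% and 5.88% in the Control files, so every Rosa-Hes1 file was lower. The part of this difference in the values of single genes was not tested.

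**Figure D1:**
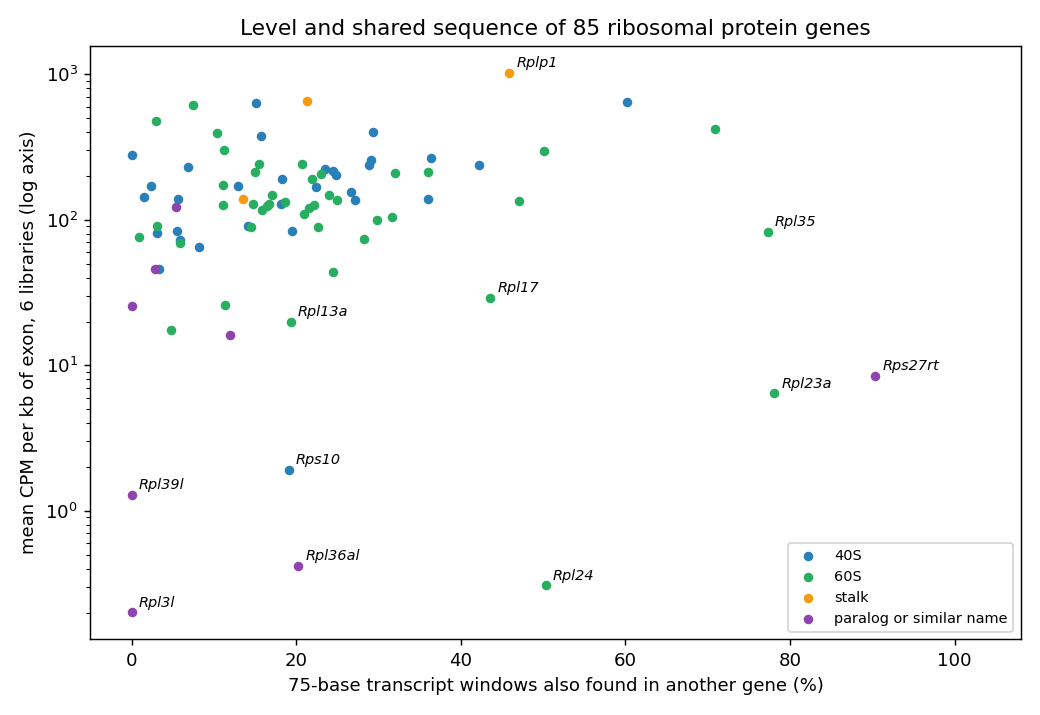
Mean level of each of the 85 genes in CPM per kb of exon (log axis, mean of 6 libraries) against the percentage of its 75-base transcript windows found in another annotated gene, coloured by subunit. Rplp1 lies highest at 1023 CPM per kb, and Rpl24, Rps10, Rpl23a and most of the lowly counted paralogs lie below.

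Most ribosomal protein transcripts had slightly lower levels in Rosa-Hes1 cultures, and no single gene passed the test. By edgeR's quasi-likelihood test with adjustment over all 16954 genes, 0 of the 85 were higher and 0 were lower at an adjusted p under 0.05, where 8.25% of all genes were called, 5.85% higher and 2.41% lower. At an unadjusted p under 0.05, 10 of the 85 were lower and 0 were higher, against 11.4% of all genes that were lower at that level. With DESeq2's Wald test 2 of the 85 genes, Rps20 and Rps27l, were lower, where 876 of all 16954 genes were. By limma-voom 1 of the 85, Rps27l, was lower, where 917 of all genes were.

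The direction was nevertheless shared. The fitted log2 fold change was below 0 in 76 of the 85 genes, where 51.4% of all genes were below 0, and its median was -0.09, against -0.01 over all genes. Where the mean level reached 100 CPM, it was below 0 in 68 of 70 ribosomal protein genes and in 50% of all 2622 genes. In 44 of the 85 every Rosa-Hes1 library was below every Control library, where 14.5% of all genes showed this order, and the reverse order was found in 1, Rpl3l, against 16.6% of all genes. At 100 CPM or more, every Rosa-Hes1 library was below every Control library in 20.7% of all 2622 genes and in 40 of 70 ribosomal protein genes. These genes are counted together because they are made together, and they are not independent of each other.

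The size of the difference was well bounded for most genes. In 57 of the 74 genes of the 40S, the 60S and the stalk that averaged 10 CPM or more, the 95% interval of the fold change lay within a 1.2-fold difference either way, and in all 74 it lay within 1.5-fold. The standard error of the log2 fold change had a median of 0.061 in these 74 genes. Among genes of at least 100 CPM, the spread between libraries of a group was a median of 0.043 on the log2 scale for ribosomal protein genes and 0.094 for other genes.

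**Figure D2:**
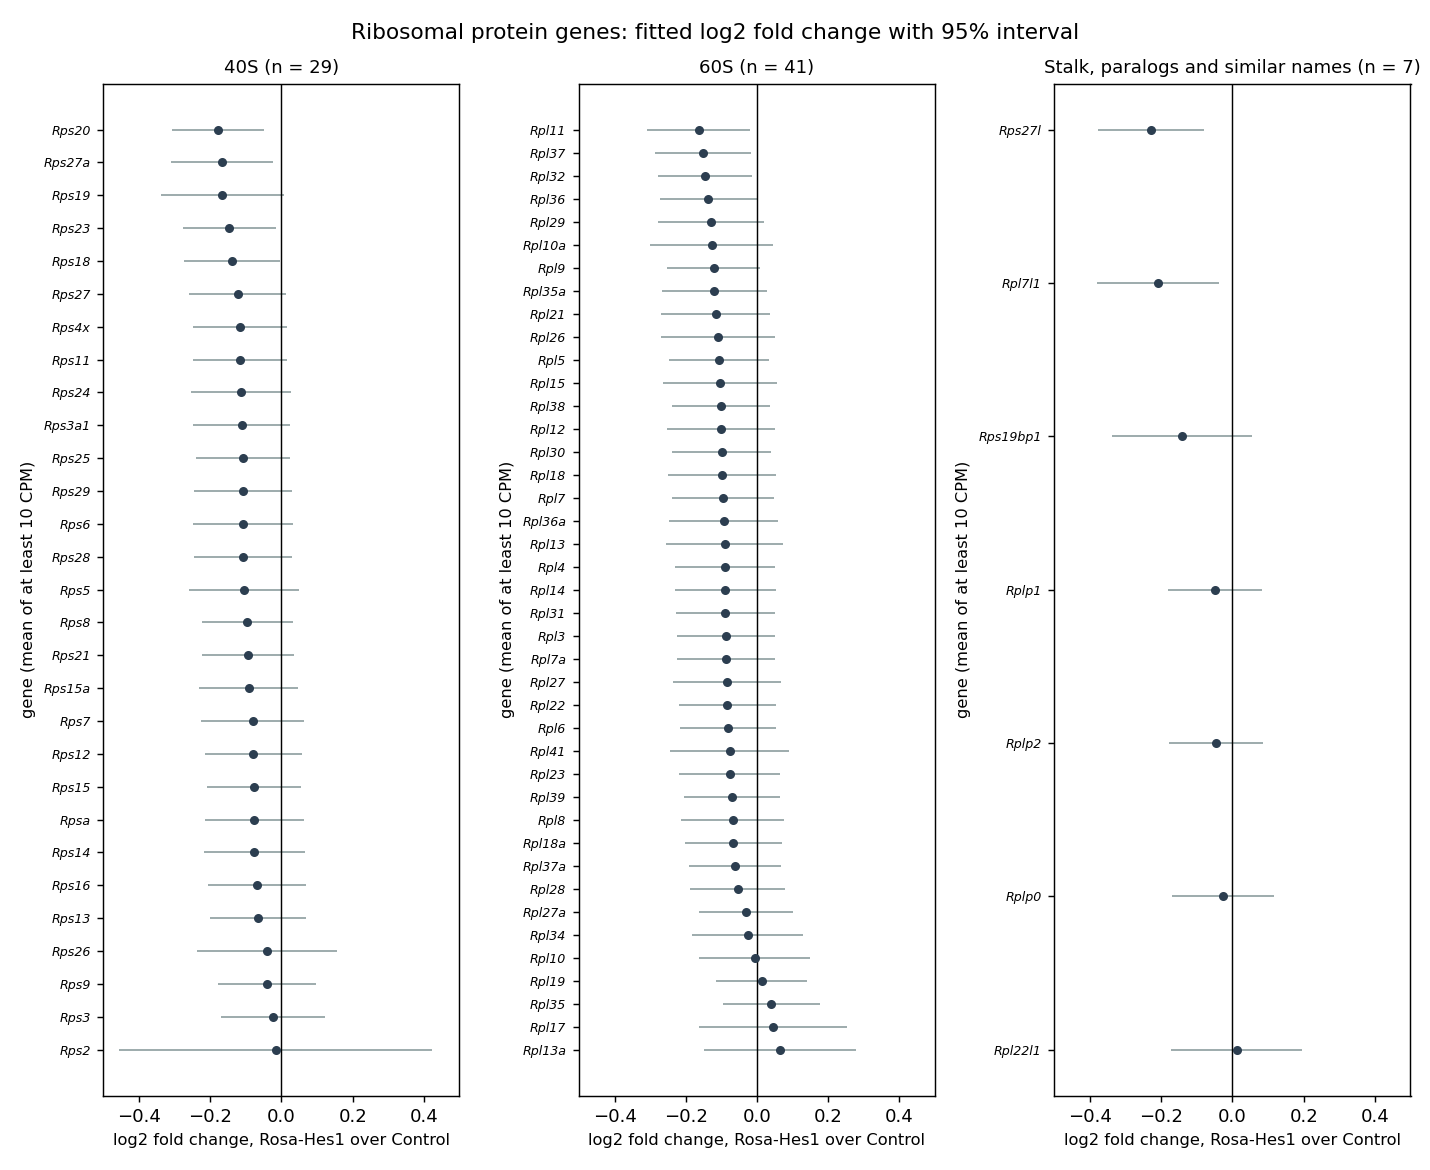
Fitted log2 fold change (Rosa-Hes1 over Control, edgeR) of 77 of the 78 ribosomal protein genes that averaged 10 CPM or more (1 gene of the 40S is not shown), by subunit, with 95% intervals as bars. The points lie mostly between -0.18 and 0.07, left of 0 in all 40S genes shown, and only Rps27l and Rpl7l1 of the paralogs lie further left.

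Added together, the 85 genes took 2.48%, 2.50% and 2.31% of the counts assigned to genes in the Rosa-Hes1 libraries and 2.73%, 2.68% and 2.61% in the Control libraries. The groups did not overlap, and the mean share was 2.43% ± 0.101 in Rosa-Hes1 and 2.67% ± 0.0581 in Control cultures (SD, n = 3 each). The difference of -0.245 percentage points is given without a test, because it is a sum over genes chosen together. It was -0.187 without Rosa-Hes1 replicate 3.

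On the TMM scale the summed level was 25498, 24868 and 23766 CPM in the Rosa-Hes1 libraries and 26270, 26437 and 26125 CPM in the Control libraries. Rosa-Hes1 replicate 3 was the lowest library, and the Control libraries lay close together. It was the lowest of the 6 in 54 of the 74 genes with at least 10 CPM, and Control replicate 2 was the highest in 32. The median deviation of these 74 genes from their own means was 0.00, -0.04 and -0.09 in the Rosa-Hes1 libraries and 0.04, 0.06 and 0.04 in the Control libraries, on the log2 scale. On this scale Rosa-Hes1 replicate 1 was thus nearest to the Control libraries for these transcripts, while over all genes replicate 2 was nearest. In share of counts replicate 2, at 2.50%, was slightly nearer than replicate 1, at 2.48%.

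**Figure D3:**
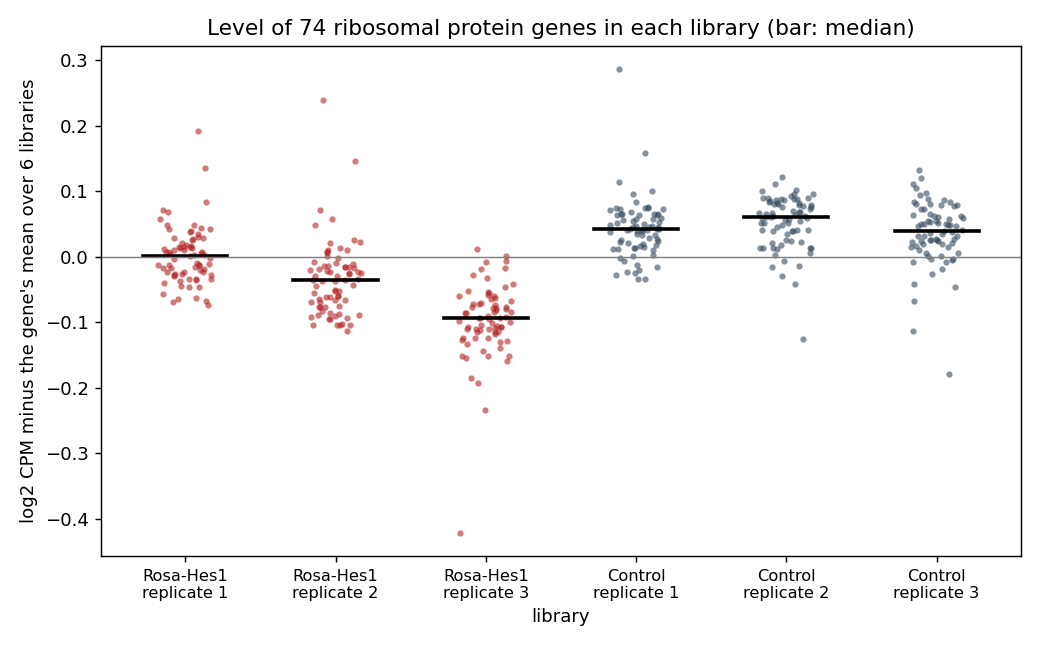
Log2 CPM of each of 74 ribosomal protein genes (40S, 60S and stalk, averaging 10 CPM or more) minus that gene's mean over the 6 libraries, 1 point per gene, with the median as a bar. The medians run from -0.09 in Rosa-Hes1 replicate 3 to 0.00 in Rosa-Hes1 replicate 1, and all 3 Control medians lie between 0.04 and 0.06.

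**Figure D4:**
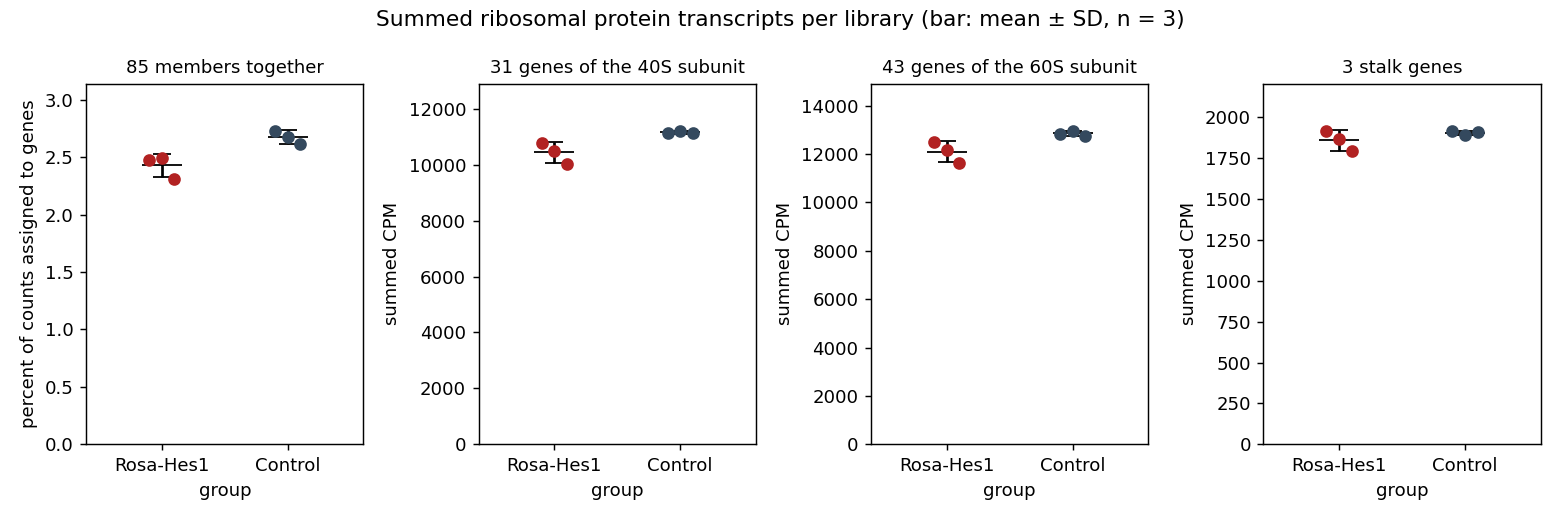
Percentage of counts taken by all 85 genes, and summed CPM of the 40S, 60S and stalk genes, with 1 point per library and the mean ± SD (n = 3 per group) as bars, on axes that start at 0. The Rosa-Hes1 points lie below the Control points for the share, the 40S and the 60S sums, and the groups overlap for the stalk.

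All 31 genes of the small subunit had a log2 fold change below 0, with a median of -0.11. At an unadjusted p under 0.05 by edgeR, 4 were lower, where 11.4% of all genes were. In 24 every Rosa-Hes1 library was below every Control library, where 14.5% of all genes showed this order. The direction turned in 4 of the 31 genes when a single library was left out, at most to 0.15 in Rps2, 0.034 in Rps26, 0.024 in Rps10 and 0.0084 in Rps3. Summed, the 31 genes reached 10776, 10513 and 10036 CPM in the Rosa-Hes1 libraries and 11153, 11223 and 11130 CPM in the Control libraries.

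Rps20, a protein of the 40S head, had the most negative value of the subunit. Its level was 282, 281 and 272 CPM in the Rosa-Hes1 libraries and 314, 312 and 318 CPM in the Control libraries. The groups were well apart for a log2 fold change of -0.18 (SE 0.0564), and edgeR gave an adjusted p of 0.0885. DESeq2's Wald test gave 0.0337.

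Rps27a, which is made as a fusion with ubiquitin, had 434, 405 and 402 CPM in the Rosa-Hes1 libraries and 458, 455 and 480.1 CPM in the Control libraries. No Rosa-Hes1 library reached a Control library, and the log2 fold change was -0.17 (SE 0.0628), with an edgeR adjusted p of 0.137. Rps6, the protein that S6 kinases phosphorylate downstream of mTORC1, had 383, 363 and 351 CPM in the Rosa-Hes1 libraries and 392, 405 and 386 CPM in the Control libraries. Its groups did not overlap either, although the gap between them was narrow, and its log2 fold change was -0.11 (edgeR adjusted p 0.323).

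The abundant Rps3a1 and Rps15 showed the same order of groups. Rps3a1 had 632, 595 and 595 CPM in the Rosa-Hes1 libraries and 649.8, 666 and 653 CPM in the Control libraries. Rps15 had 396, 394 and 381 CPM in the Rosa-Hes1 libraries and 402, 419.8 and 415 CPM in the Control libraries. Neither passed the test, with edgeR adjusted p of 0.287 for Rps3a1 and 0.454 for Rps15. Rps4x, encoded on the X chromosome, had 644, 625 and 616 CPM in the Rosa-Hes1 libraries and 670.1, 679.9 and 693 CPM in the Control libraries, without overlap and with an edgeR adjusted p of 0.254.

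Rps2, singled out after its values were seen, was the exception in spread. It had 277, 298 and 189 CPM in the Rosa-Hes1 libraries and 308, 232 and 234 CPM in the Control libraries, so that single libraries of both groups differed far more than the groups did. Its log2 fold change was -0.02 with a standard error of 0.187, the largest of the 74 genes with at least 10 CPM. Its transcripts share 75-base windows with 51 other genes.

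The large subunit was lower by a similar amount, with exceptions. Of 43 genes, 38 had a log2 fold change below 0, and the median was -0.09. At an unadjusted p under 0.05 by edgeR, 4 were lower, where 11.4% of all genes were. In 18 every Rosa-Hes1 library was below every Control library, where 14.5% of all genes showed this order. The sums were 12500.1, 12165 and 11645 CPM in the Rosa-Hes1 libraries and 12843, 12969 and 12753 CPM in the Control libraries. The ratio of summed 60S to summed 40S levels was 1.160, 1.157 and 1.160 in the Rosa-Hes1 libraries. In the Control libraries it was 1.151, 1.156 and 1.146. Every Rosa-Hes1 ratio was above every Control ratio, though the ratio differed by under 0.02 between any pair of libraries.

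Rpl4, the most abundant member in CPM, had 1226, 1222 and 1144 CPM in the Rosa-Hes1 libraries and 1272, 1290.0 and 1262 CPM in the Control libraries. The groups did not overlap, with a log2 fold change of -0.09 (edgeR adjusted p 0.418). Rpl11, which with Rpl5 and 5S RNA binds the p53 regulator Mdm2 when ribosome assembly fails, had 345, 319.7 and 309 CPM in the Rosa-Hes1 libraries and 362, 367 and 363 CPM in the Control libraries. The Control values of Rpl11 were nearly identical and all above the Rosa-Hes1 values, for a log2 fold change of -0.16 (SE 0.0639, edgeR adjusted p 0.149). Rpl5 had 537, 494 and 495 CPM in the Rosa-Hes1 libraries and 547, 551 and 545 CPM in the Control libraries, again without overlap (edgeR adjusted p 0.329).

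The 60S also held the members with the most positive values among those of at least 10 CPM. Rpl13a, a protein with a separate role in silencing inflammatory mRNAs, had 41.4, 46.7 and 41.6 CPM in the Rosa-Hes1 libraries and 45.0, 41.7 and 37.2 CPM in the Control libraries. Of its exon bases, 35.4% also lie in other genes on the same strand, chiefly Gm45713, which had 0 counts in all libraries. The level of Rpl13a is therefore also a level of the reads assigned to it. Rpl17 had 44.2, 36.3 and 37.6 CPM in the Rosa-Hes1 libraries and 38.5, 39.1 and 36.9 CPM in the Control libraries. The groups overlapped in both, with log2 fold changes of 0.07 for Rpl13a and 0.05 for Rpl17 (edgeR adjusted p 0.727 and 0.814).

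Rpl35, a neighbour of the exit tunnel, had 106, 107 and 101 CPM in the Rosa-Hes1 libraries and 101, 103 and 102 CPM in the Control libraries. Rpl19, a 60S protein that takes part in a bridge to the 40S, had 307, 305 and 302 CPM in the Rosa-Hes1 libraries and 296, 308 and 302 CPM in the Control libraries. Both were level between the groups, with log2 fold changes of 0.04 (95% interval -0.10 to 0.18) for Rpl35 and 0.01 (-0.11 to 0.14) for Rpl19. The 5 genes of the 60S with a value above 0, which include Rpl23a, shared 19.3% to 78.1% of their windows with other genes (median 50.1%). The 72 genes of the 40S, the 60S and the stalk with a value below 0 shared a median of 18.4%. The part of shared sequence in these values was not tested.

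The stalk differed least between the groups. Rplp0, the base of the stalk, had 1119, 1076 and 1024 CPM in the Rosa-Hes1 libraries and 1099.7, 1093 and 1087 CPM in the Control libraries. Rplp1 had 505, 509 and 491 CPM in the Rosa-Hes1 libraries and 524, 505 and 528 CPM in the Control libraries. Rplp2, its dimer partner, had 295, 283 and 277 CPM in the Rosa-Hes1 libraries and 292, 294 and 296 CPM in the Control libraries. The groups overlapped in all 3 genes, with log2 fold changes of -0.03, -0.05 and -0.05. Their 95% intervals reach down to -0.17, -0.18 and -0.18 for Rplp0, Rplp1 and Rplp2, so a difference like that of the other members is not outside them.

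Heterozygous loss of several ribosomal protein genes causes Diamond-Blackfan anemia in humans. The 6 followed here, Rps19, Rpl5, Rpl11, Rps26, Rps24 and Rpl35a, are not all such genes. They all had a value below 0, with a median log2 fold change of -0.12, and in 5 every Rosa-Hes1 library was below every Control library, as in 44 of all 85 members. Rps19, the gene most often affected, had 385, 394 and 333 CPM in the Rosa-Hes1 libraries and 409.8, 414 and 423 CPM in the Control libraries. Its Rosa-Hes1 values were spread mainly by replicate 3, and its log2 fold change was -0.17 (SE 0.0758, edgeR adjusted p 0.213). Rps24 had 509, 468 and 475 CPM in the Rosa-Hes1 libraries and 521, 528 and 523 CPM in the Control libraries. Its lowest Control library stood above its highest Rosa-Hes1 library, with an edgeR adjusted p of 0.292.

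Rpl35a had 60.2, 59.1 and 56.9 CPM in the Rosa-Hes1 libraries and 62.1, 65.6 and 63.7 CPM in the Control libraries, also without overlap. Rps26 had 274, 272 and 229 CPM in the Rosa-Hes1 libraries and 257, 256 and 284 CPM in the Control libraries. Its groups overlapped, and its direction turned when Rosa-Hes1 replicate 3 was left out (log2 fold change 0.03) or Control replicate 3 was left out (0.01).

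Rpl38 was the reference transcript of the study's quantitative RT-PCR, against which copy numbers of other genes were corrected. It had 110.2, 109 and 104 CPM in the Rosa-Hes1 libraries and 115, 115 and 117 CPM in the Control libraries. The groups did not overlap, but the difference was small, at a log2 fold change of -0.10 (SE 0.0606, 95% interval -0.24 to 0.04, edgeR adjusted p 0.339). The primers are given because they define what the reference assay amplified.
Rpl38 forward primer: agaacaaggataatgtgaagttcaaggttc
Rpl38 reverse primer: ctgcttcagcttctctgccttt
Both matched 4 annotated Rpl38 transcripts exactly and framed a product of 95 bases. They also matched the transcripts of the pseudogenes Rpl38-ps2 and Gm8129. The RNA libraries held 612, 589 and 538 counts of Rpl38-ps2 in Rosa-Hes1 and 551, 686 and 560 counts in Control cultures, and 84, 85 and 78 counts of Gm8129 in Rosa-Hes1 and 86, 90 and 76 counts in Control cultures. Reads were thus assigned to both loci in every library. Of the 75-base windows of Rpl38, 23.1% also occur in Rpl38-ps2, so these are levels of assigned reads, and their origin was not tested.

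The paralogs did not move as a group. Rps27l, a paralog of Rps27 that p53 induces, had 90.8, 96.4 and 87.2 CPM in the Rosa-Hes1 libraries and 107, 109 and 105 CPM in the Control libraries. Its groups did not overlap, and the gap between them was wider than the range of the Control libraries but not that of the Rosa-Hes1 libraries. Its log2 fold change of -0.23 (SE 0.0649) was the most negative of the genes with at least 10 CPM. It had the smallest adjusted p of all 85, at 0.0654 with edgeR. It passed the threshold under 5 of 15 other settings, with adjusted p of 0.0271 to 0.0497 (DESeq2, limma-voom, both stricter filters on low counts, and without Rosa-Hes1 replicate 2). Its coding sequence is 76.2% identical to that of Rps27 over 252 bases.

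Rps27 itself had 169.8, 173 and 162 CPM in the Rosa-Hes1 libraries and 185, 186 and 178 CPM in the Control libraries. It did not overlap either, with a log2 fold change of -0.12 and an edgeR adjusted p of 0.242. Rps27rt, whose coding sequence of 252 bases has 0 differences from that of Rps27, had 3.17, 2.28 and 2.84 CPM in the Rosa-Hes1 libraries and 2.95, 3.41 and 4.36 CPM in the Control libraries. Reads from Rps27 and Rps27rt can be told apart in few positions, so the level of Rps27rt is uncertain.

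Rpl7l1, a relative of Rpl7 that in yeast acts in ribosome assembly, had 148, 159 and 143 CPM in the Rosa-Hes1 libraries and 185, 174 and 161 CPM in the Control libraries. The groups lay close but did not overlap, for a log2 fold change of -0.21 (SE 0.0754, edgeR adjusted p 0.121). Rpl7 had 664, 607 and 611 CPM in the Rosa-Hes1 libraries and 663, 677 and 670.0 CPM in the Control libraries, and of the Rosa-Hes1 libraries only replicate 1 reached the Control range.

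Rpl22l1, a paralog that stands in for Rpl22, was level, with 31.5, 32.7 and 32.6 CPM in the Rosa-Hes1 libraries and 30.9, 34.5 and 30.6 CPM in the Control libraries. Rpl22 had 223, 214 and 213 CPM in the Rosa-Hes1 libraries and 229, 237 and 222 CPM in the Control libraries. The groups overlapped in both genes. Rps19bp1, a nucleolar protein that binds Rps19 and is not a ribosomal protein, had 26.3, 28.4 and 24.8 CPM in the Rosa-Hes1 libraries and 29.7, 30.3 and 27.7 CPM in the Control libraries, with overlap.

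The other paralogs were near the limit of detection beside their parent genes. Rpl3l had 5, 6 and 10 counts in the Rosa-Hes1 libraries and 3, 5 and 0 in the Control libraries, while Rpl3, a protein of the peptidyl transferase centre, had 656, 656 and 616 CPM in the Rosa-Hes1 libraries and 695, 682 and 673 CPM in the Control libraries. Rpl3l was the sole member higher in every Rosa-Hes1 library, with an edgeR adjusted p of 0.293, and counts this low do not settle a direction. Rpl39l had 25, 14 and 10 counts in the Rosa-Hes1 libraries and 19, 16 and 10 in the Control libraries. Rpl36al had 7, 7 and 13 counts in the Rosa-Hes1 libraries and 6, 7 and 9 in the Control libraries. Their X-linked parents were well expressed, Rpl39 at a mean of 126 ± 3.47 CPM in Rosa-Hes1 cultures, against 133 ± 2.73 CPM in Control cultures, and Rpl36a at 176 ± 11.2 CPM in Rosa-Hes1 cultures, against 188 ± 4.04 CPM in Control cultures (SD, n = 3 each). Rpl10, also X-linked, was at 205 ± 11.6 CPM in Rosa-Hes1 cultures, against 205 ± 9.27 CPM in Control cultures.

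Rack1 and Fau encode ribosomal proteins under other names and lie outside the naming rule. Rack1, a 40S scaffold protein, had 904, 923 and 854 CPM in the Rosa-Hes1 libraries and 966, 969 and 954 CPM in the Control libraries, without overlap. Fau, which encodes Rps30, averaged 316 ± 10.9 CPM in Rosa-Hes1 cultures and 323 ± 4.76 CPM in Control cultures (SD, n = 3 each). Neither was called by edgeR, with adjusted p of 0.315 for Rack1 and 0.774 for Fau.

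Genes that build ribosomes were lower by more than the ribosomal proteins. Of 87 ribosome biogenesis factors, 9 were lower and 0 were higher by edgeR (adjusted p under 0.05), against 2.41% of all genes lower, and 80 had a log2 fold change below 0, with a median of -0.29. Nop58, a core protein of the box C/D particles that methylate ribosomal RNA, fell to 149, 182 and 139 CPM in Rosa-Hes1 libraries, against 241, 238 and 206 CPM in Control libraries (log2 fold change -0.54, adjusted p 0.0229). Nmd3, the adaptor that exports the 60S from the nucleus, fell to 64.6, 72.8 and 64.5 CPM in Rosa-Hes1 libraries, against 86.9, 89.2 and 82.3 CPM in Control libraries (-0.36, adjusted p 0.0260). In both genes Rosa-Hes1 replicate 2 was nearest to the Control libraries, unlike in the ribosomal protein genes on the same TMM scale. Pno1, which acts in the last steps of 40S assembly, and Gnl3, the nucleolar GTPase nucleostemin, fell with log2 values of -0.33 and -0.46 (edgeR adjusted p 0.0263 and 0.0283). The remaining 5 called were Rcl1, Nop56, Utp18, Mphosph10 and Lsg1. The summed level of the 87 was 7371, 8461 and 6947 CPM in the Rosa-Hes1 libraries and 9661, 9390.3 and 8387 CPM in the Control libraries, with Rosa-Hes1 replicate 2 just above the lowest Control library. The count of calls depended on the libraries used. It was 51 without Rosa-Hes1 replicate 2, 2 without Control replicate 3 and 0 for each of the other 4 libraries left out. Lower calls over all genes moved with it, at 1091, 52 and 21 to 171, against 408 with all libraries. DESeq2's Wald test called 32 of the 87 lower and limma-voom 39, where 876 and 917 of all 16954 genes were lower. The median of the 87 stayed between -0.37 and -0.23 throughout.

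Other lists of the translation machinery had medians between -0.11 and -0.03. Of 28 TOP mRNAs that encode no ribosomal protein, 2 were lower by edgeR and 0 were higher, where 2.41% of all genes were lower, and the median log2 fold change was -0.09. They were Snhg5, a host gene of small nucleolar RNAs, at -0.44 (adjusted p 0.0376), and Nap1l1, a histone chaperone, at -0.38 (adjusted p 0.0377). The count was 4 when Rosa-Hes1 replicate 2 was left out and 0 for each of the other 5 libraries. Over all genes, 1091 were lower without Rosa-Hes1 replicate 2 and 21 to 171 without each of the others. Of 29 translation initiation factors, 0 were called by edgeR in either direction, and the median was -0.11. At an unadjusted p under 0.05, 8 were lower and 1 was higher, where 1935 of all 16954 genes were lower and 2422 were higher. Of 21 regulators of mTORC1 and TOP translation, 1 was higher and 1 was lower, counts near the shares of all genes (5.85% higher and 2.41% lower), and the median was -0.03, with 12 below 0. Eif4ebp1, a translation repressor that mTORC1 inactivates, rose to 189.6, 150.2 and 176 CPM in Rosa-Hes1 libraries, against 111, 128 and 119.7 CPM in Control libraries (log2 fold change 0.52, edgeR adjusted p 0.0172). Myc, a transcription factor that promotes ribosome production, fell to 159, 161 and 137 CPM in Rosa-Hes1 libraries, against 206, 199.8 and 192 CPM in Control libraries (-0.39, edgeR adjusted p 0.0224). Of 17 genes of ribosome quality control, Hbs1l, which rescues stalled ribosomes, was higher (0.28, edgeR adjusted p 0.0384) and Abce1, which splits ribosomes after termination, was lower (-0.28, edgeR adjusted p 0.0477), again 1 in each direction beside 5.85% and 2.41% of all genes, with a median of -0.09. These 4 calls were each lost without at least 4 of the 6 libraries in turn, with no change of direction.

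**Figure D5:**
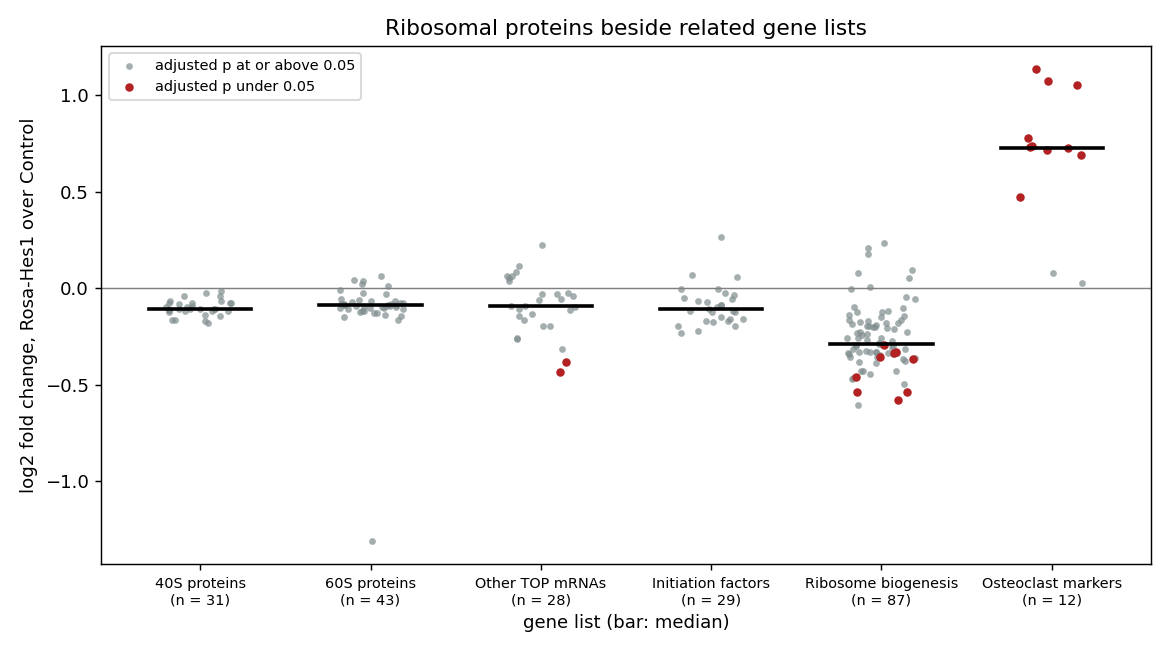
Log2 fold change (Rosa-Hes1 over Control) of each gene in 6 lists, with the list median as a bar and genes at an edgeR adjusted p under 0.05 in red. The medians of the 40S, 60S, other TOP and initiation factor lists lie between -0.11 and -0.09, that of the biogenesis factors is -0.29, and that of the osteoclast markers is 0.73. The lowest 60S point is Rpl24, with 2 to 9 counts per library.

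Osteoclast markers moved with the group, while the sums of the other marker lists overlapped between the groups. The summed level of the 12 osteoclast markers was 17763 to 20702 CPM in Rosa-Hes1 libraries, against 11249 to 14400.4 CPM in Control libraries. Of 12 macrophage markers 1, Cd68, which osteoclasts also make, was higher by edgeR (log2 fold change 0.52, adjusted p 0.0142) and 0 were lower. A log2 fold change below 0 was found in 9 of the 12, and the median was -0.15. The macrophage markers summed to 5406 to 6709 CPM in Rosa-Hes1 cultures, against 5306 to 6459 CPM in Control libraries. Sums of B cell markers were at most 10.4 CPM in either group, and those of T and NK cells at most 8.54 CPM. Neutrophil markers summed to 239.9 to 341 CPM in Rosa-Hes1 cultures, against 257 to 511 CPM in Control libraries, and osteoblast and stroma markers to 113 to 379 CPM in Rosa-Hes1 cultures, against 179 to 487 CPM in Control libraries. No marker of these last 4 lists was called by edgeR, with 1 neutrophil marker, Ly6g, higher at an unadjusted p under 0.05 and the other 7 of that list below 0 (median of the 8 -0.37), and of 8 erythroid markers none had enough counts to be tested. The part of the osteoclast marker difference in the ribosomal protein values was not tested.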

How the data were processed

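RNA of 6 osteoclast cultures was sequenced as poly(A)-selected stranded libraries on 1 platform. Per the labels and methods, the authors aligned reads with HISAT2 2.1.0, used SAMtools 1.9, dropped duplicate reads (Picard) and obtained gene totals from HTSeq. The build is GRCm38 (mouse) in the submitters' processing notes but a human one in the methods, and the gene IDs in the files are mouse Ensembl IDs. The deposited values are these raw counts. The strand setting and counting mode are not given in the sources used here. Between 17.4% and 18.1% of reads in each file were in rows that name no gene and were left out.

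Gene symbols, coordinates and lengths came from GENCODE M21. Genes with at least 10 counts summed over 6 libraries were tested with edgeR 4.0.16 (TMM, robust quasi-likelihood, no covariate, Benjamini-Hochberg over all genes) in R 4.3.3, and the procedure was tested on simulated data. CPM use TMM factors. Alternatives were DESeq2 1.42.0, limma-voom 3.58.1, other scalings and filters, a replicate block and leaving out each library. Intervals are 95%. Members, lists and alternatives were chosen with earlier results of these data known. Named members were those with the 5 highest and 5 lowest levels per kb, the 4 most positive and 4 most negative changes at 10 CPM or more, every called member, Rpl38, Rps6, Rps27a, the stalk, Diamond-Blackfan genes, and paralogs with their parents, and of other lists every called gene up to 5, otherwise the 4 smallest adjusted p. The study gives the replicates as biological, from separate mice as far as stated. Values of some single genes are not reported here.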

Additional observations from a re-analysis of the deposited data

How the results depend on the processing

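Across 15 other settings the number of ribosomal protein genes called higher was 0. The number called lower was 0 in the main analysis and 2 with DESeq2's Wald test, and it ranged from 0 to 1 when a library was left out. The median log2 fold change stayed below 0, from -0.11 without Rosa-Hes1 replicate 1 to -0.07 without Rosa-Hes1 replicate 3, and it was -0.10 with DESeq2 size factors or upper-quartile scaling and -0.09 with TMM factors computed without these genes. The difference in share of counts ranged from -0.279 to -0.187 percentage points when a library was left out. Of 579 values of 39 named genes, 554 kept their direction and side of the threshold, 19 turned direction and 6 passed the threshold, those of Rps27l under 5 settings and Rps20 with DESeq2.

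Of the biogenesis factors, 27 were lower with no filter on low counts, 32 with DESeq2 and 39 with limma-voom, and 0 to 51 when a library was left out. Of the other TOP mRNAs, 0 to 4 were lower when a library was left out. Over all genes, 697 were lower with no filter on low counts, and 21 to 1091 when a library was left out. DESeq2 called 1302 of all genes higher and 876 lower and limma-voom 1377 and 917, and the causes of these differences were not tested.

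All turns were in genes near 0 or with few counts. With limma-voom, Rpl10 was 0.019 and Rpl22l1 was -0.010. With a library left out, the values ranged for Rpl10 from -0.045 to 0.037, for Rpl13a from -0.0041 to 0.13, for Rpl17 from -0.047 to 0.10, for Rpl19 from -0.00054 to 0.028, for Rpl22l1 from -0.020 to 0.069, for Rpl36al from -0.15 to 0.48, for Rpl39l from -0.34 to 0.34, for Rplp0 from -0.058 to 0.0013, for Rps10 from -0.41 to 0.024, for Rps2 from -0.15 to 0.15 and for Rps26 from -0.087 to 0.034.

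Same-numbered libraries correlated at 0.01, -0.14 and 0.39 in their deviations from the group means, and differently numbered ones at -0.53 to 0.50. With 3 libraries per group these deviations constrain each other, so the check cannot decide whether the numbers pair the samples. With the replicate block, 0 ribosomal protein genes were called in either direction, the median was -0.09, 1 TOP mRNA and 16 biogenesis factors were lower, 0 ribosome quality control genes were called, and 710 genes in all were higher and 340 lower, against 991 and 408 without it. Low counts limit Rpl24, Rpl3l, Rpl36al and Rpl39l. Testing only genes of at least 1 CPM was chosen after seeing the data and gave 1 lower call, Rps27l.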
